A study of Mus musculus with 9 samples.

Results

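Control-only regions are the stretches of the genome enriched for 5-hydroxymethylcytosine (5hmC) that the authors listed for control mouse bone marrow cells and that share no base with any region listed for MLL-AF9 cells. They were chosen by the overlap of the 2 deposited region lists on the autosomes, with both lists taken as the authors made them. Of 51145 autosomal control regions 9404 met this rule, which is 18.4% (95% Wilson interval 18.1 to 18.7, counting error only), and the other 41741 are called overlapping below. The control-only regions covered 5.17 Mb, 15.6% of the length of the autosomal control list. Since the rule is itself the comparison of the 2 lists, the values below describe the members and carry no test.

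The series studied mononuclear bone marrow cells of B6.SJL (CD45.1) mice. Control cells had received the empty retroviral vectors MSCVneo and MSCVpuro, and MLL-AF9 cells had received MSCVneo carrying MLL-AF9 together with the same MSCVpuro vector. MLL-AF9 is a leukemia fusion of a histone methyltransferase with AF9. Of the 9 samples, the pair of libraries enriched for 5hmC is used here, 1 from each group, and so there is no spread between replicates to set a difference against. The labels do not state the age of the animals, whether animals were pooled, or how long cells were kept after infection. The labels name an antibody to 5-methylcytidine for these libraries, and the series' design text names selective chemical labelling.

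5hmC is made from methylated cytosine by the TET dioxygenases, and it is an intermediate on the way to unmethylated cytosine. In blood cells it is known to be enriched at enhancers and within the bodies of active genes, and its pattern differs between lineages. The MLL-AF9 list was the longer one, with 166014 autosomal regions, 3.25 for each control region, and 122411 of them overlapped no control region. The authors' rule for listing a region and the reads per library are unknown, so absence from the MLL-AF9 list does not show that 5hmC was absent. In cell mixtures, fewer cells carrying 5hmC at a place and less 5hmC per cell cannot be told apart.

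How many regions are control-only depended on the length of the MLL-AF9 list. With the number of MLL-AF9 regions cut to that of control regions by score, 29090 control regions (56.9%) had no overlap. With MLL-AF9 regions of at least the median score they numbered 21886 (42.8%). When the MLL-AF9 regions were instead widened by 5000 bp on each side, 2100 control-only regions (4.11%) were left.

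Control-only regions were narrower than overlapping regions. Their median width was 503 bp, with the middle 50% between 398 and 649 bp and a range from 142 to 2766 bp. Overlapping regions had a median of 589 bp, a middle 50% from 451 to 791 bp and a widest region of 5673 bp. Of the 10% of control regions with the smallest width 28.3% were control-only (interval 27.1 to 29.5), and the share fell at each step to 7.23% (6.56 to 7.98) in the 10% with the largest width. A wide region has more bases to share, so part of this gradient follows from the rule.

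Their scores were lower too, though the ranges overlapped broadly. The authors' score, whose meaning is not stated in the sources used here, had a median of 239 in control-only regions, with the middle 50% between 166 and 333, and of 269 in overlapping regions. The control-only share was 23.6% (22.4 to 24.8) in the 10% of control regions of the lowest score and 9.09% (8.33 to 9.91) in the 10% of the highest. Score and width rise together in the list, and the score per base hardly differed: its median was 0.501 in control-only and 0.497 in overlapping regions. The 2 gradients were not equal when one measure was held. Within the third of control regions with the lowest scores, from 69 to 215, the share fell from 29.5% in the narrowest of 5 equal groups to 14.7% in the widest, and within the highest scores it fell from 20.8% to 6.54%. Within the narrowest regions, from 142 to 481 bp, it lay between 26.1% and 23.4% across 5 equal groups by score, and at middle widths, from 481 to 687 bp, between 20.2% and 17.7%. Width thus separated the 2 classes where score was similar, and score did so only slightly where width was similar, apart from the highest-scoring wide regions, where the share was 7.42%.

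**Figure D1:**
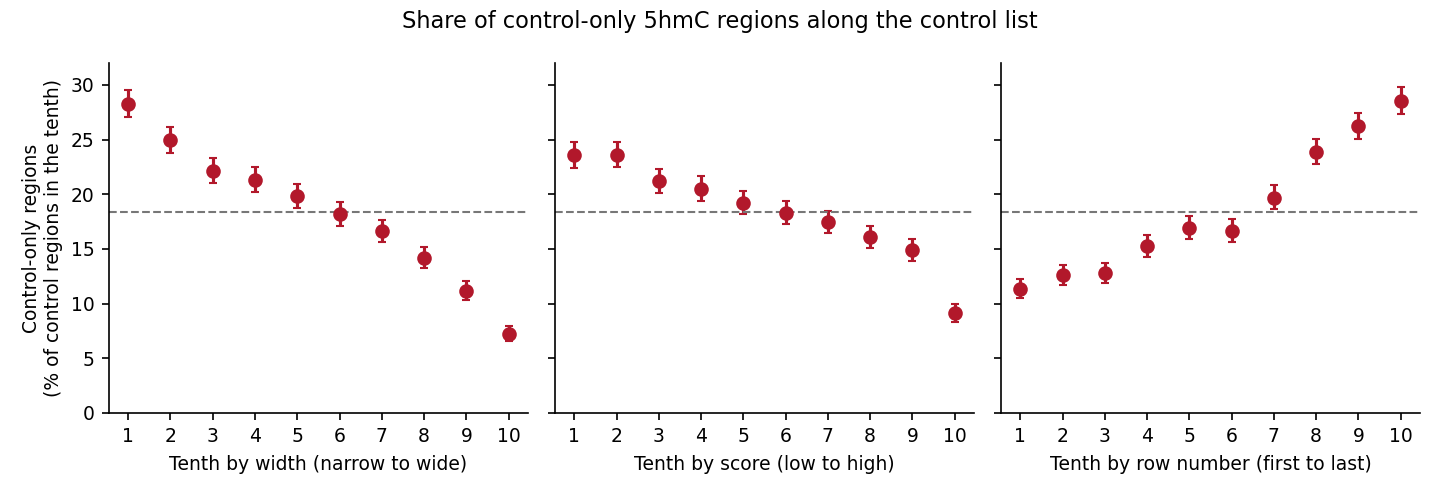
Share of control regions that were control-only (y axis, %) in 10 equal groups of the 51145 autosomal control regions ordered by width, by the authors' score and by row number in the deposited list. Bars are 95% Wilson intervals for counting error and the dashed line is the overall 18.4%; the share falls from 28.3% to 7.23% with width and from 23.6% to 9.09% with score, and climbs from 11.3% to 28.6% along the rows.

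The order of rows in the deposited control list carried a similar gradient. The list is not sorted by score or position as a whole; its autosomal rows fall into 95 blocks, each in chromosome order. Of the first 10% of rows 11.3% were control-only (10.5 to 12.2), and of the last 10% 28.6% were (27.3 to 29.8). The median score fell from 334 to 216 and the median width from 719 to 449 bp between these same rows. Among the lowest scores, from 69 to 215, the share still ran from 14.3% in the first of 5 equal groups of rows to 30.4% in the last. What orders the blocks is not given in the sources used here.

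Close to the threshold the 2 classes were alike in width and score. In the control-only class 281 regions (2.99%) lay 50 bp or less from an MLL-AF9 region, 6 of them with no base between, and their median width was 504 bp and median score 239. Among overlapping regions 154 (0.369%) shared 50 bases or fewer, with a median width of 527.5 bp and a median score of 247.5. Most overlaps were broad: the median overlapping region had 91.4% of its width in MLL-AF9 regions, and 6.12% of them had under 50%.

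Most control-only regions (77.7%) lay within 5 kb of an MLL-AF9 region. The median distance between edges was 1282.5 bp, the middle 50% of distances lay between 408 and 4223 bp, and 44.3% were within 1 kb. Overlapping regions, measured to the nearest MLL-AF9 region that they did not overlap, were closer, with a median of 680 bp and 61.8% within 1 kb. Larger distances were also more frequent among control-only regions: 22.3% of control-only and 6.99% of overlapping regions were over 5 kb away, and 4.04% and 0.256% were over 50 kb away. Beyond 100 kb there were 217 control-only (2.31%) and 33 overlapping regions (0.0791%), and beyond 500 kb 25 (0.266%) and 4 (0.00958%). Overlapping regions lie by the rule where the MLL-AF9 list has a region, so part of this difference follows from the rule.

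**Figure D2:**
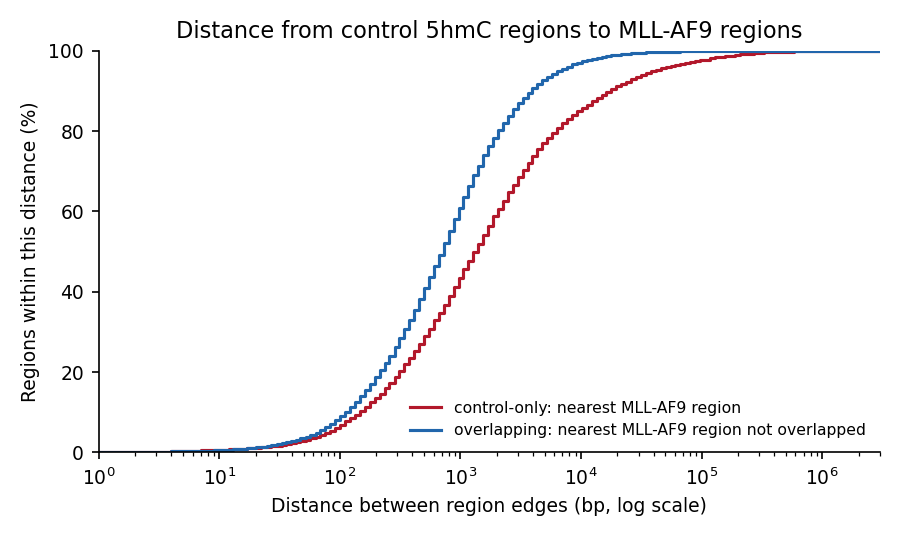
Cumulative share of regions (y axis, %) by distance between region edges on a log axis (bp), for 9404 control-only regions to their nearest MLL-AF9 region and for 41741 overlapping control regions to the nearest MLL-AF9 region they did not overlap. The control-only curve lies to the right, with 77.7% against 93.0% of regions within 5 kb.

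Control-only regions far from MLL-AF9 regions were slightly narrower and lower in score than near ones. Those within 500 bp of an MLL-AF9 region had a median width of 517.5 bp and a median score of 245. The medians were 482 bp and 228.5 at 10 to 50 kb, 472 bp and 228 at 50 to 100 kb, and 487.5 bp and 237.5 at 100 to 500 kb. Of all control-only regions 4473 (47.6%) had an MLL-AF9 region within 5 kb on both sides, 2831 (30.1%) on 1 side and 2100 (22.3%) on neither. The nearest MLL-AF9 region itself overlapped another control region in 40.7% of cases, close to the 40.02% for overlapping regions and above the 26.3% among all MLL-AF9 regions. Its median score in the MLL-AF9 list was 214, beside 215 for that whole list.

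The surroundings differed as well. Within 50 kb of its centre a control-only region had a median of 19 MLL-AF9 regions, with the middle 50% from 9 to 31, and an overlapping region had 29, from 18 to 41, not counting those it overlapped. Other control regions were fewer as well, with a median of 8 against 11. Of the 490 control regions with no other MLL-AF9 region in that window, 382 (78.0%, interval 74.1 to 81.4) were control-only. The share fell to 39.9% with 3 to 5 such neighbours, 22.5% with 11 to 20, and 9.74% (9.22 to 10.3) with 41 or more. Fewer MLL-AF9 regions also means less covered sequence to share a base with, so this gradient is tied to the rule. The median score of control-only regions was 233 with no neighbour, between 228 and 245 in the groups between, and 245 with 41 or more. That of overlapping regions was 240.5 with no neighbour and 287 with 41 or more, so the scores of the 2 classes lay closer together where MLL-AF9 regions were sparse.

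Control-only regions were found on all 19 autosomes at 2.64 to 6.03 per Mb of the span between the first and last listed region. The highest densities were on chromosomes 11 (6.03 per Mb), 19 (5.86 per Mb) and 17 (5.39 per Mb), and the lowest on 14 (2.64 per Mb) and 18 (2.82 per Mb). This order mostly repeated the density of the whole control list: over the 19 chromosomes, which share both libraries, the 2 densities had a Spearman correlation of 0.937. The share of control regions that were control-only varied less. It was highest on chromosomes 3 (21.9%, interval 20.2 to 23.6), 9 (21.3%, 19.8 to 22.9), 1 (20.6%, 19.2 to 22.1) and 6 (20.03%, 18.6 to 21.6), whose counting intervals lay above the overall share. It was lowest on chromosomes 14 (16.5%, 14.8 to 18.2), 10 (16.5%, 15.2 to 17.8) and 8 (16.6%, 15.2 to 18.0), whose intervals lay below it. Chromosome 3 also had the longest median distance to an MLL-AF9 region, 1997 bp, beside 927 bp on chromosome 15. Among control regions of at least the median score, chromosome 3 was again highest, at 19.0%, and chromosome 8 was lowest, at 12.8%. Wilson intervals treat regions as independent, and the next paragraphs show that neighbouring regions were not.

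**Figure D3:**
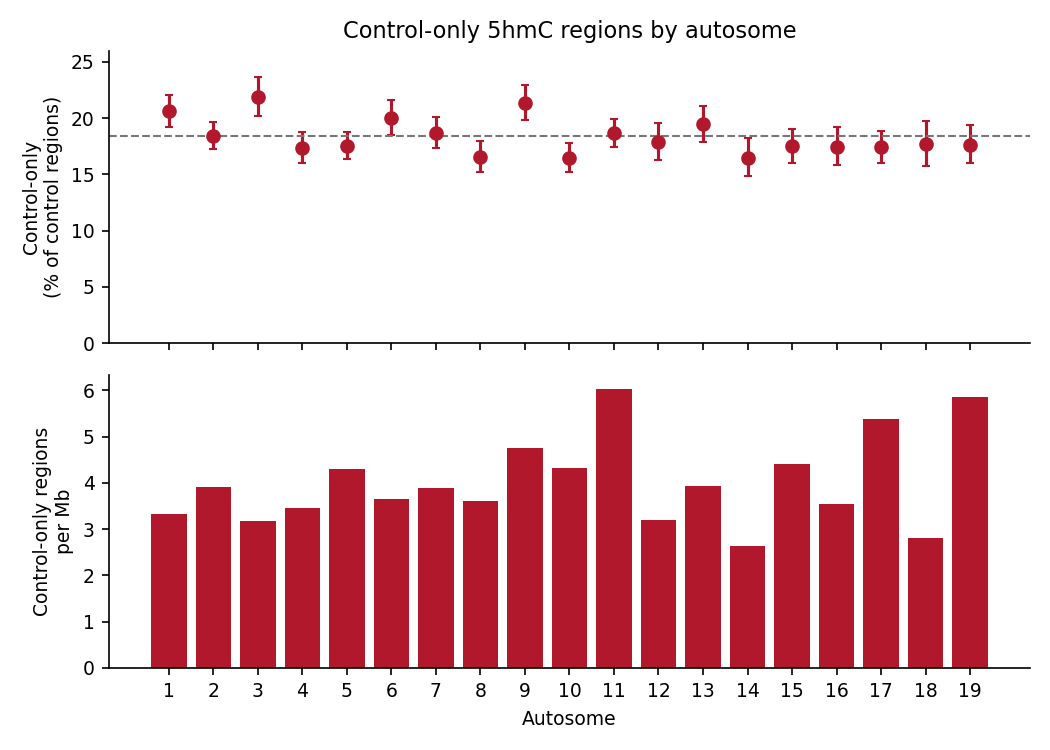
Share of control regions that were control-only with 95% Wilson intervals (upper panel, %, dashed line at the overall 18.4%) and control-only regions per Mb (lower panel) for the 19 autosomes. Shares lie between 16.5% and 21.9%, whereas densities range from 2.64 to 6.03 per Mb.

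Control-only regions tended to follow each other along the chromosome. After a control-only region the next control region was control-only in 31.2% of 9397 cases (interval 30.3 to 32.2), and after an overlapping region in 15.5% of 41729 cases (15.1 to 15.8). The contrast was widest for close neighbours: with a gap of at most 1 kb the shares were 37.1% and 12.6%, with 5 to 20 kb 27.9% and 15.5%, and with over 100 kb 30.5% (27.5 to 33.6) and 26.8% (25.0 to 28.8), where the intervals overlapped. It was present at every level of score, at 30.0% and 15.7% for the lowest scores, 31.5% and 15.9% for the middle and 32.9% and 14.97% for the highest. Of all control-only regions 4618 (49.1%) had another one directly before or after, compared with 27.9% of overlapping regions. That figure was 32.7% for control-only regions within 500 bp of an MLL-AF9 region and 87.5% for those 100 to 500 kb away. By the rule, any control region lying wholly within a gap of the MLL-AF9 list is control-only. This rise with distance is therefore tied to the rule. Neighbours that share such a gap are both control-only, so part of the contrast between neighbours follows from the rule too. The median distance to the nearest other control-only region was 13730.5 bp, and 15.5% had one within 1 kb.

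**Figure D4:**
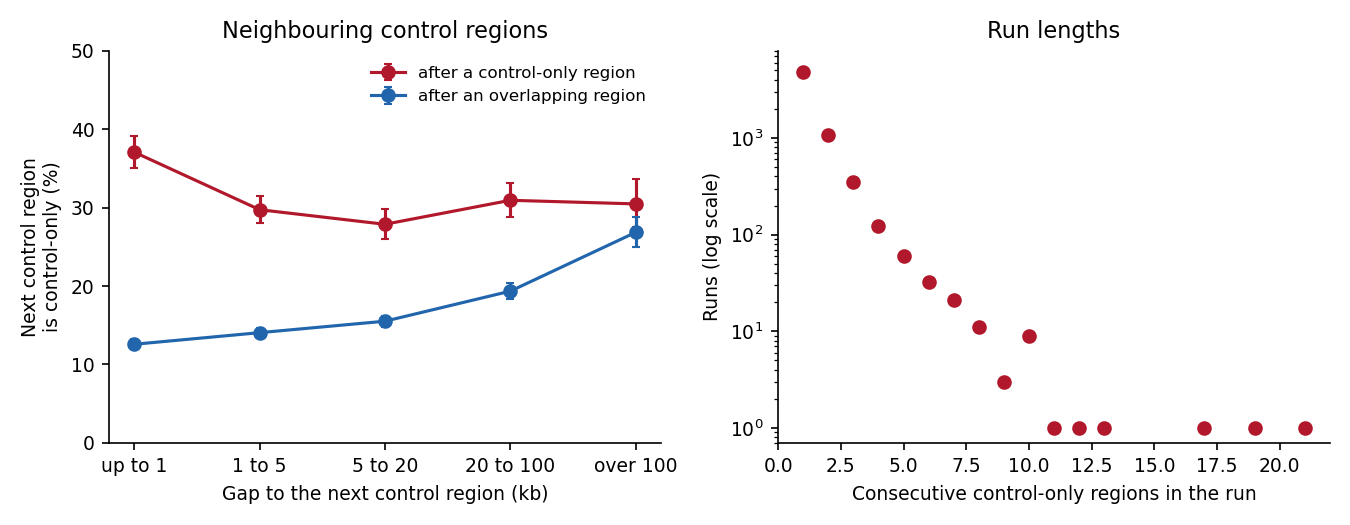
Left, share of next control regions that were control-only (y axis, %, 95% Wilson intervals) by the gap to them (kb). The 2 lines are for regions after a control-only and after an overlapping region. They are at 37.1% and 12.6% for gaps up to 1 kb. Over 100 kb they are at 30.5% and 26.8%, with overlapping intervals. Right, number of runs (log axis) by the number of consecutive control-only regions they hold, from 4786 single regions to 1 run of 21.

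Runs of consecutive control-only regions numbered 1070 with 2 members, 473 with 3 or 4 and 142 with 5 or more. The 142 long runs held 937 regions, 9.96% of the class, and spanned a median of 80.4 kb. Members of long runs had a median score of 255 and a median width of 532 bp, compared with 239 and 496 bp for single ones. In the 15 runs with 10 or more members, the median score was 278 and 55.2% of members reached the control list's median of 264, compared with 41.2% of all control-only regions. Long runs were thus not made of the weakest control-only regions.

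The longest run lay on chromosome 11 from 44820583 to 45348142 (mm9), where all 21 control regions of a 527.6 kb stretch were control-only and the MLL-AF9 list had no region at all. The members had scores from 94 to 624 with a median of 251 and widths from 304 to 1073 bp, and 20 of the 21 were at least 50 kb from any MLL-AF9 region. The member with the highest score, from 45097856 to 45098928, was 309.7 kb away. The gap of the MLL-AF9 list around this run was 674.6 kb long.

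The second run, also on chromosome 11, was denser. From 98346388 to 98404583 it held 19 control-only regions in 58.2 kb, or 32.7 per 100 kb, with a median score of 363, from 126 to 596. A single MLL-AF9 region, of score 393, lay between them. The surroundings were not empty of MLL-AF9 regions: 13 lay in the 50 kb before the run and 11 in the 50 kb after it. The 16 control regions in the 50 kb before were mixed, with 7 control-only, and the 4 after it all overlapped.

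The third run, on chromosome 13 from 54323928 to 54513823, held 17 control-only regions and 2 MLL-AF9 regions. One member, from 54474471 to 54476446, had a score of 1193 and a width of 1976 bp, the highest of this run. The 50 kb before the run held 24 MLL-AF9 regions and 16 control regions of which 1 was control-only, so the change from overlapping to control-only was abrupt there. On the other side 50 kb held 1 MLL-AF9 region and no control region.

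Both remaining runs of the longest 5 lay on chromosome 3. From 130716114 to 130863646 it carried 13 control-only regions with no MLL-AF9 region between them, a median score of 337 and distances of 43.0 to 148 kb. From 122036079 to 122127131 it carried 12, with a median score of 284 and 1 MLL-AF9 region, and 5 of the 6 control regions in the next 50 kb were control-only as well. Across the 5 runs 50 of 82 members (61.0%) had at least the control list's median score.

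**Figure D5:**
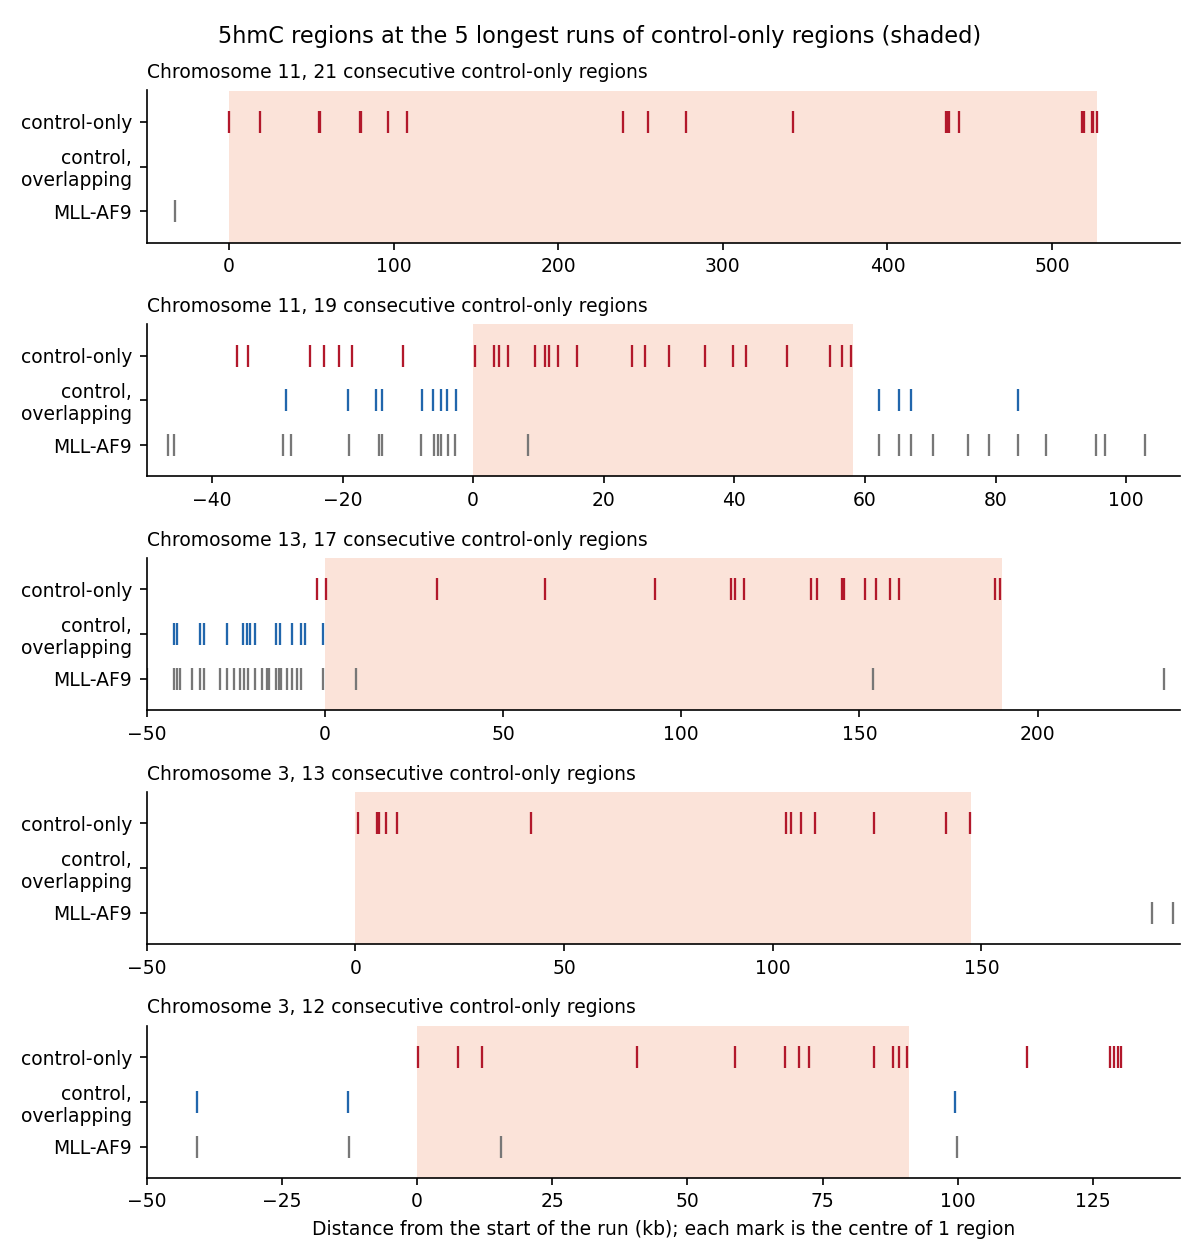
Centres of control-only, overlapping control and MLL-AF9 regions around the 5 longest runs of control-only regions, by distance from the start of the run (kb, a scale of its own in each panel); shading marks the run and 50 kb is drawn on each side. From top to bottom the runs hold 0, 1, 2, 0 and 1 MLL-AF9 regions, and MLL-AF9 regions crowd both borders of the run of 19 and the left border of the run of 17.

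Gaps of the MLL-AF9 list give a stricter view, because no MLL-AF9 region can lie between their members. A single control-only region lay in each of 6388 gaps with a median length of 5.68 kb, which accounts for 67.9% of the class. In 340 gaps there were 3 or more, 1352 regions in all (14.4%), and the median such gap was 27.2 kb. In 76 gaps there were 5 or more, with a median of 69.6 kb. One of the fullest, on chromosome 1 from 135242984 to 135277355, packed 10 control-only regions with scores from 135 to 550 into 34.4 kb inside a gap of 111 kb.

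At the scale of 1 Mb, 1477 of the 1715 bins with a control region held a control-only region, with a median of 4 per bin and at most 47. Of 1 Mb bins, 301 (17.6%) were enough to hold 50% of control-only regions and 305 (17.8%) to hold 50% of all control regions, so at this scale the class was about as concentrated as the list it came from. Across these bins the 2 counts had a Spearman correlation of 0.832. The 5 fullest bins were on chromosome 9 from 32000001 to 33000000, with 47 control-only of 106 control regions (44.3%, interval 35.3 to 53.8), on chromosome 3 from 52000001 to 53000000, with 44 of 90 (48.9%, 38.8 to 59.1), on chromosome 17 from 29000001 to 30000000, with 38 of 162 (23.5%), on chromosome 16 from 30000001 to 31000000, with 36 of 105 (34.3%), and on chromosome 11 from 98000001 to 99000000, with 35 of 106 (33.0%). The chromosome 11 bin contains the second run. The interval of the chromosome 17 bin, 17.59 to 30.55, included the overall share of 18.4%. Those of the chromosome 16 bin (25.9 to 43.8) and the chromosome 11 bin (24.8 to 42.4) lay above it. In the chromosome 9 bin the MLL-AF9 list had 110 regions, 1.04 for each control region, where the ratio of the whole lists was 3.25. In the other 4 bins that ratio lay between 1.42 and 2.23.

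Among 869 bins with at least 20 control regions, the control-only share had a median of 16.3% and a middle 50% from 11.5% to 23.3%. In 16 of them over 50% of the control regions were control-only. The highest share was on chromosome 3 from 122000001 to 123000000, where 20 of 26 were control-only (76.9%, interval 58.0 to 89.0). That bin contains the run of 12, and 5 of the 10 highest shares were on chromosome 3. On chromosome 6 from 70000001 to 71000000 it was 18 of 26, and that bin had fewer MLL-AF9 regions, 25, than control regions. At the other end 8 bins had none, among them chromosome 16 from 89000001 to 90000000 with 0 of 28 control regions control-only, which allows a share of up to 12.1% by the Wilson interval, and 143 MLL-AF9 regions.

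The 5 control-only regions of the highest scores were wide. They lay 35 to 1202 bp from an MLL-AF9 region, where the median of the class was 1282.5 bp. The first, on chromosome 8 from 122354553 to 122357174, scored 2200 over 2622 bp and lay 952 bp from an MLL-AF9 region on one side and 2662 bp on the other. The second, on chromosome 19 from 47981524 to 47984289, scored 1895 and was also the widest of the class, at 2766 bp, with MLL-AF9 regions 874 and 774 bp from its edges. The third, on chromosome 6 from 22276346 to 22278783, scored 1755 and was 1056 bp away. On chromosome 6 from 70673292 to 70675129 a region of score 1651 was 1202 bp away, and it lies in the bin with 18 of 26 above. On chromosome 2 from 128291665 to 128293382 a region of score 1561 was 35 bp from an MLL-AF9 region, with 54 MLL-AF9 regions within 50 kb. All 5 thus had an MLL-AF9 region within 5 kb on both sides, as 47.6% of all control-only regions did. The one on chromosome 8 lay in a run of 3 control-only regions. The one of score 1651 lay in a run of 2. The remaining 2 of the 5 widest lay on chromosome 11 from 97341741 to 97344091, with 2351 bp, a score of 1514 and a place in a run of 8, and on chromosome 15 from 58809585 to 58811802, with 2218 bp, a score of 1465 and MLL-AF9 regions 410 and 411 bp from its edges.

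Of the 5124 control regions with a score of at least 574, 468 (9.13%) were control-only. Their median width was 956.5 bp and 50.4% of them were within 1 kb of an MLL-AF9 region, compared with 44.3% of all control-only regions. A score of 1000 or more was reached by 37 of the 9404 control-only and 794 of the 41741 overlapping regions.

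The control-only regions farthest from MLL-AF9 regions varied in width and score. The farthest, on chromosome 17 from 60017322 to 60017496, was 175 bp wide with a score of 89 and was 2.47 Mb from an MLL-AF9 region, with no other control region within 50 kb. The next, on chromosome 12 from 42902719 to 42903273, scored 230 and was 1.07 Mb away. The other three lay together on chromosome 1 between 170266190 and 170294010, in a run of 4, at 961 to 988 kb from the nearest MLL-AF9 region, and they scored 704, 393 and 159. Of these 3, 2 were thus above the control median of 264 and 1 was below it, and the farthest region of all, with its score of 89, was nearer to the minimum of the list, 69.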

How the data were processed

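The region lists of the pair of 5hmC libraries, 1 per group, were used. Mouse build mm9 and the tools MACS 1.4, Bowtie 0.17.2 and CASAVA 1.8.2 are named for the series, per the submitters' processing notes. What each did, its settings and the reads per library are not given in these sources. The deposited score of each region is the authors' value, of unstated meaning, and was compared only within a list, except that alternatives ranked the MLL-AF9 list by its own score. Other deposited columns hold starts, ends and row numbers. Starts are printed counted from 1.

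Overlap was at least 1 shared base, on 19 autosomes. Distances are bases between edges. Windows reached 50 kb from a region's centre, bins were 1 Mb by region start, and Wilson intervals are at 95% and cover counting error only. Own code gave the 9404 regions and all 51145 distances that bedtools 2.31.1 gave, and was tested on simulated data. No test was made, since there is 1 library per group. Regions named are the 5 of the highest score, the 5 widest, the 5 farthest, the 5 longest runs and the 5 fullest bins; bins named by share, the gap on chromosome 1 and the bin without a control-only region were chosen after their values were seen. The members and measures were chosen with earlier results of these data known. No genome or annotation of mm9 was used, so sequences, genes and CpG content were not analysed here, and neither were the RNA table, cell markers and the input library. Python 3.11.15, numpy 2.4.6, pandas 2.3.3, scipy 1.17.1 and matplotlib 3.10.9 were used.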

Additional observations from a re-analysis of the deposited data

How the results depend on the processing

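Values changed with each choice as follows, with the main value first. The number of control-only regions was 9404 of 51145 control regions (18.39%). It was 2100 with MLL-AF9 regions extended by 5000 bp, and 3875 of 25580 (15.15%) among control regions of at least the median score. It was 29090 with as many top-scoring MLL-AF9 as control regions, and 21886 with MLL-AF9 regions of at least the median score. In this order of settings the median width, 503 bp, was 484.5, 624, 511 and 500 bp, the median score, 239, was 232.5, 365, 235 and 228, the median distance, 1282.5 bp, was 14375, 1164, 3250 and 2061.5 bp, and the share next to another control-only region, 49.1%, was 57.8%, 42.3%, 83.9% and 72.3%. Where at least 50% of the control region had to be shared, these values were 551 bp, 253, 715 bp and 53.8%, with 11960 regions. With an extension of 500 bp there were 6673 control-only regions (13.05%), with a median width of 498 bp and a median distance of 2425 bp. With regions within 500 bp merged there were 7368 control-only of 42949 control regions (17.16%). The distance was then 1766.5 bp and the share next to another 45.2%. The sex chromosomes moved no value beyond its binomial interval. The share on chromosome 3, 21.9%, was 19.0% among control regions of at least the median score. Of control-only regions 70.6% had fewer MLL-AF9 neighbours within 50 kb than the median overlapping region, 68.7% within 10 kb and 67.2% within 250 kb. At most 50% of overlapping regions lie below that median, by its definition. Part of these moves follows from the settings' construction, since a list with fewer MLL-AF9 regions leaves more control regions without one and an extension removes the near ones. A score limit on the control list likewise leaves fewer control regions, and those of higher score. Reads per library are unknown, so the effect of depth on either list was not tested, and without replicates no value here has an error between samples.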

Other observations

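On the X chromosome, which is outside the autosomal set, 47 of 141 control regions (33.3%) had no overlap with an MLL-AF9 region. On the autosomes this share was 18.4%. The MLL-AF9 list had 819 regions on X and 19 on Y, and the control list had 0 on Y.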
